A study of Mus musculus with 16 samples.

Results

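Broad DNase hypersensitive sites (DHS) of mouse liver were defined as regions in which at least 1 single peak was 1500 bp or wider in any of 4 peak lists. Peaks of the 4 lists on chromosomes 1 to 19 (mm9) were joined into 50655 regions wherever they shared at least 1 bp, and 1336 regions (2.64%) met the width limit. The members were therefore chosen by the width of the peaks, and every width given for them is a description. They were set beside all 50655 regions and beside the 16772 regions that were present in all 4 lists without reaching the limit, referred to as the narrower shared regions.

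DNase-seq was carried out on liver nuclei of male and female C57BL/6J (B6) mice, an inbred laboratory strain, and of male and female CAST/EiJ (CAST) mice, an inbred line of a different mouse subspecies. All livers came from animals aged 8 weeks, no treatment is named, and liver nuclei were digested with 32 U of DNase I before fragments of 125 to 400 bp were kept for sequencing. Each of the 4 groups of sex and strain had 4 libraries, but the authors merged them before calling peaks, so each group is 1 list and no spread between animals can be given. Intervals below are Wilson 95% intervals and cover counting error only. CAST reads had been mapped to an mm9 genome carrying CAST variants and converted back, so CAST widths are in mm9 bases and leave out sequence that mm9 does not hold.

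DNase I cuts DNA where nucleosomes are displaced, and a DHS usually spans a single cluster of bound transcription factors flanked by nucleosomes. A broad DHS is an open stretch longer than that, as is common at CpG island promoters, which lack stable nucleosomes around the start site, and at enhancers with several clusters of factors lying close together. A peak caller draws the ends of a peak where the reads fall to the background, so a deeper list also tends to have wider peaks.

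Reference sequence (mm9, plus strand) at the summit, the base with the most reads, shows examples of the sequence at the strongest point of broad DHS. The 200 bases around the strongest summit are shown for promoters of Hsp90ab1 (chr17:45710331-45710530), which encodes a cytosolic chaperone, Nfe2l2 (chr2:75541616-75541815), the regulator of the antioxidant response, Zc3h4 (chr7:16985323-16985522), whose summits were among the closest together over the lists, and Nr5a2 (chr1:138857142-138857341), a nuclear receptor of bile acid synthesis. They are followed by distal DHS nearest to Gm15218 (chr14:46635640-46635839), the widest distal region broad in all lists, and to Hfe2 (chr3:96304447-96304646), which encodes the hepcidin regulator hemojuvelin. Capitals mark matches, on either strand, to the motif letters given with the motif counts below, the CCAAT box and the short TGACG form left out.
Hsp90ab1: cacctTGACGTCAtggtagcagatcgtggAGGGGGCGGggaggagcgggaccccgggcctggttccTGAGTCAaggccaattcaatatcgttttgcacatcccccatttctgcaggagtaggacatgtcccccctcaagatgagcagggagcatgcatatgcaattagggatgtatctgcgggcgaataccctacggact
Nfe2l2: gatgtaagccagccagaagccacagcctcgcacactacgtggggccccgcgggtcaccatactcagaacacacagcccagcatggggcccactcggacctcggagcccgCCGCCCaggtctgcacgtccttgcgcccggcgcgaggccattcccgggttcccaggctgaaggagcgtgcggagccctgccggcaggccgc
Zc3h4: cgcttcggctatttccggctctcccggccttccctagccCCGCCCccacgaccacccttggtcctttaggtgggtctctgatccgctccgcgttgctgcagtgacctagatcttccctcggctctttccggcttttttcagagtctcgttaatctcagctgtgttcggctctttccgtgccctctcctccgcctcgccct
Nr5a2: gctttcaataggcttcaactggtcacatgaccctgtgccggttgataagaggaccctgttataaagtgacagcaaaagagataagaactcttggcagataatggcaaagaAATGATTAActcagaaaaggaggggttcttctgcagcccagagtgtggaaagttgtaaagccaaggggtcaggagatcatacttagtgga
Gm15218: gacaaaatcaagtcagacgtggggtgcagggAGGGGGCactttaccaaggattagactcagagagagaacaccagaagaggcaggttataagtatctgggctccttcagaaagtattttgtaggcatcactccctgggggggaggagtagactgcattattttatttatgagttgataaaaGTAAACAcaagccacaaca
Hfe2: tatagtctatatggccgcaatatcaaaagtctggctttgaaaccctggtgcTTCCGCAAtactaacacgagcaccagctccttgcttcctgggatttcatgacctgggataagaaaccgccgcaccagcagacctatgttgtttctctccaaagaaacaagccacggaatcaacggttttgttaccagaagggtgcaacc
The first 3 windows each hold 1 match to the SP1 letters, and in the 300 bp around these summits G and C made up 60.7% at Hsp90ab1, 69.3% at Nfe2l2 and 64.3% at Zc3h4. The Hsp90ab1 window also holds 1 match each to the CRE, AP-1 and CTCF letters. The Nr5a2 promoter, with 42.7% G and C, holds 1 HNF1 match. Of the distal windows, that near Gm15218 holds 1 FOXA match and 1 CTCF match, and that near Hfe2 holds 1 CEBP match.

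Some members matched other places in the genome or the mitochondrial chromosome, or had a local background far above the rest, and they are called multi-copy or high-background here. Of the 10 members with the highest −log10 q, 7 were of these kinds. The top one, 2015 bp wide nearest to Myo3a, matched the mitochondrial chromosome over its length, as did the regions nearest to Tyrp1 and Gm10925, and all 3 were found in the CAST lists only. Mitochondrial peaks themselves were listed in the B6 lists only, 5 in each, and the part of the different genomes used for mapping in this was not tested. A further 13 members had at least 1 more match in mm9 to the 300 bp window at their strongest summit, among them Gm10720 with 148 other matches. Another 5 had no other match to that window in mm9 and lay at Sfi1 (3 regions), Eif4enif1 and nearest to Pgk2. Their local backgrounds were 53.3 to 303.6 times the genome-wide one, against at most 10.1 times among the members kept. The widest peak of all, 5590 bp in the male B6 list, lay in one of the Sfi1 regions, where the other lists had 2521 bp (female B6), 2523 bp (male CAST) and 4269 bp (female CAST). These 21 members are counted among the 1336 unless stated, and the named examples come from the other 1315.

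Broad peaks were more frequent in the male lists. Peaks of 1500 bp or more numbered 879 of 38107 in male B6 (2.31%, 95% interval 2.16 to 2.46%), 293 of 25782 in female B6 (1.14%, 1.01 to 1.27%), 897 of 38971 in male CAST (2.30%, 2.16 to 2.46%) and 198 of 24467 in female CAST (0.809%, 0.704 to 0.929%). The intervals of the male and female lists did not overlap, while those of the male lists of the strains nearly coincided. The genome-wide background of a list was 15.4 and 13.9 reads for B6 males and females and 14.3 and 7.94 reads for CAST males and females. The backgrounds of female B6 and male CAST were thus close, at 13.9 and 14.3 reads, while their broad peaks numbered 293 and 897, and the part of depth in the sex difference was not tested. The number of reads over the summit of a broad peak had a median of 200 and 123 for B6 males and females and 192 and 96.5 for CAST males and females, against 77, 61, 76 and 47 for the other peaks of the same lists. Across the peaks of a list, width and summit reads went together, with Spearman's rho of 0.692, 0.663, 0.680 and 0.619 over all peaks of male B6, female B6, male CAST and female CAST, which share a library pool and are not independent.

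A region was rarely broad in every list. Of the 1336 regions, 760 were broad in 1 list, 314 in 2, 169 in 3 and 93 in all 4 (6.96%, 5.72 to 8.45%). The commonest patterns were male CAST alone with 367 regions, male B6 alone with 352 and both male lists with 229, followed by every list but female CAST with 108. In all, 948 regions were broad in a male list and no female list, and 41 in a female list and no male list. Yet the regions themselves were nearly always present, as 1227 members (91.8%) had a peak in all 4 lists against 35.5% of all regions. Width chose the members, went with summit reads in each list, and lets a region join more peaks, so nothing is read from this contrast.

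**Figure D1:**
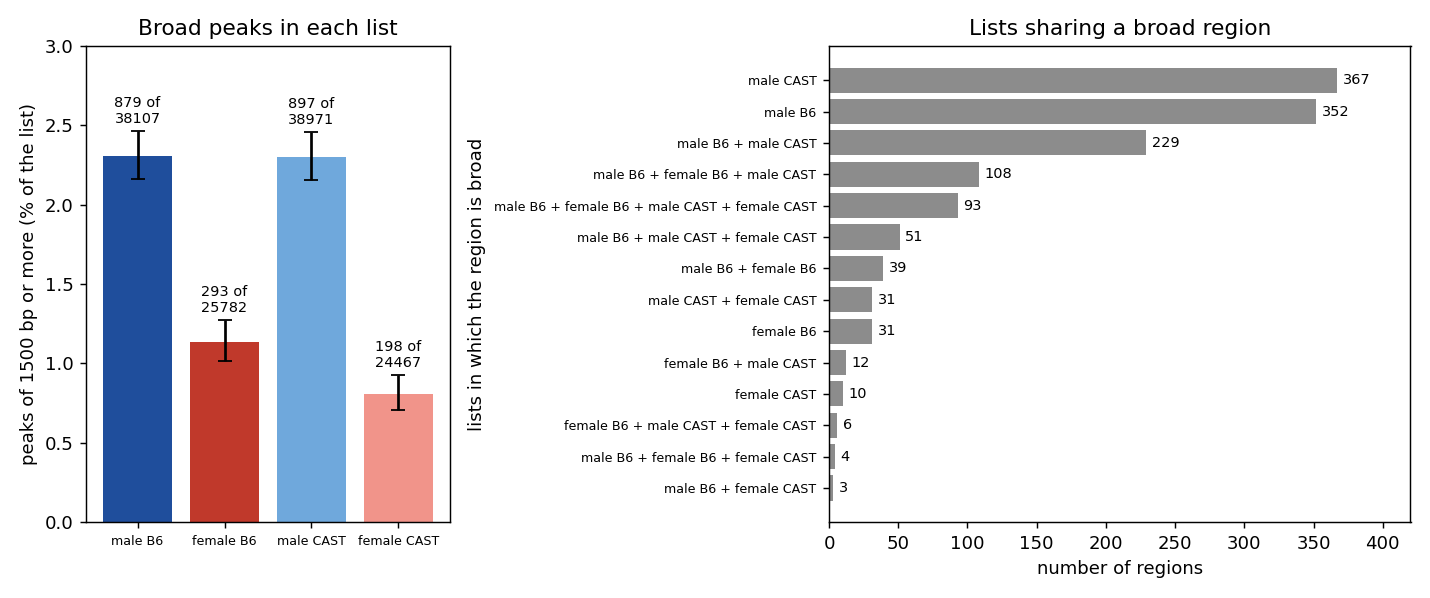
Left, the percentage of each list's peaks that were 1500 bp or wider, with Wilson 95% intervals and the counts above the bars; right, the number of regions broad in each combination of lists. The male bars stand at 2.31 and 2.30%, the female bars at 1.14 and 0.809%, and the bars for a single male list are the longest on the right, at 367 and 352 regions.

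What a broad region became in a list where it was not broad was usually a shorter peak over the same site. Among the 3077 pairs of a member and a list in which it was not broad, 1953 held 1 narrower peak, 952 held several peaks and 172 held none. In the female CAST list the single narrower peaks had a median width of 991 bp over 745 regions, in female B6 1103 bp over 643, in male B6 1301 bp over 281 and in male CAST 1310.5 bp over 284. Of the 1953 single narrower peaks, 372 were 1400 bp or wider and so missed the limit by little. In 193 of the 952 divided cases the pieces added up to 1500 bp or more. The promoter of Nr5a2 shows such a division, with 1 peak of 1721 bp in female B6 and 2 peaks in each other list, the wider being 800 bp (male B6), 877 bp (male CAST) and 781 bp (female CAST). The reads over its summit were 410 and 165 for B6 males and females and 334 and 108 for CAST males and females. Near the limit, Rnf139, Tkt and Gm2061 had widest peaks of exactly 1500 bp, and Tars, Gm11967 and Rabgef1 missed it by 1 bp. There were 51 members under 10 bp above the limit and 51 regions up to 10 bp below it.

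The median of the widest peak was 1687 bp over the members, 858 bp over the narrower shared regions and 573 bp over all regions. Of the members, 203 reached 2000 bp, 26 reached 2500 bp and 4 reached 3000 bp. The widest single-copy region lay at Ugt1a1 (chr1:90107806-90111400), the enzyme that conjugates bilirubin, and it was 2774 and 3595 bp for B6 males and females and 2708 and 2613 bp for CAST males and females. Its strongest summit lay in an intron, 1981 bp downstream of a start site, and the 4 summits lay within 214 bp. The promoter of Nr3c1, the glucocorticoid receptor, was almost constant at 2924, 2922, 2925 and 2841 bp (lists in the same order). A distal DHS nearest to Gm15218 (chr14:46635265-46637889), 260901 bp from the nearest start site, was as constant at 2560, 2539, 2576 and 2518 bp although its summit reads ranged from 80 in female CAST to 377 in male B6. Other regions were narrower in the female lists. Nek8 (chr11:77989859-77992648), a kinase of the primary cilium whose region also holds the start site of Tlcd1, measured 2647 bp in male B6 and 2788 bp in male CAST against 1418 and 1210 bp in the female lists, where it was divided into 2 peaks that added up to 2060 and 1794 bp. Lnx2, an E3 ubiquitin ligase whose region is shared with the RNA polymerase subunit gene Polr1d, measured 2603 and 2497 bp in the male lists and 641 and 599 bp in the female lists, where it was divided into 3 peaks.

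**Figure D2:**
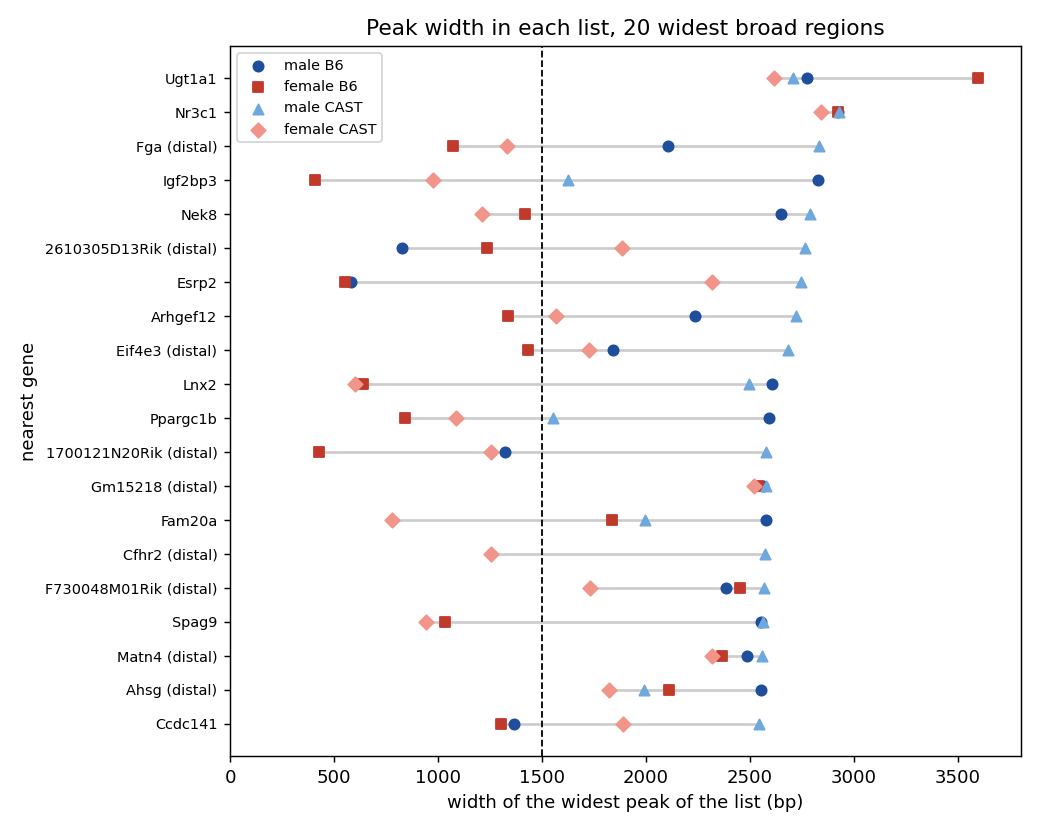
Width in bp of the widest peak of each list (points, 1 per list) for the 20 widest single-copy regions, named by the nearest gene, with the limit of 1500 bp dashed and the range of the lists as a grey line. Nr3c1 and Gm15218 hold their points together, Nek8, Lnx2 and Spag9 set male points right of female points, and Esrp2 sets CAST points (2745 and 2317 bp) right of B6 points (583 and 554 bp).

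Distal regions were well represented among the widest. A DHS 5921 bp from the start site of Fga, the fibrinogen alpha chain made by hepatocytes (chr3:82842600-82845429), measured 2104 bp in male B6, 2830 bp in male CAST, 1072 bp in female B6 and 1330 bp in female CAST. One 6645 bp from Ahsg, the plasma protein fetuin-A (chr16:22898760-22901623), was broad in every list with 2551, 2111, 1991 and 1823 bp. With those near Fga and Gm15218, the 5 widest distal regions included the ones nearest to 2610305D13Rik, Eif4e3 and 1700121N20Rik, the largest width of each being 2764, 2680 and 2578 bp, in male CAST each time. The region nearest to Eif4e3, 143097 bp from the nearest annotated start site, had its strongest summit in an intron. The 300 bp there held 66% G and C with an observed over expected CpG ratio of 1.14, which is unusual for a distal member. That region kept a peak of 1433 bp in its narrowest list, whereas the one near 1700121N20Rik was 428 bp in female B6.

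Broad DHS lay at transcription start sites (TSS) more often than other DHS did. A TSS of a protein-coding, lincRNA or processed transcript lay within 2.5 kb of 864 members (64.7%, 62.1 to 67.2%), compared with 53.4% of the narrower shared regions (52.6 to 54.2%) and 32.7% of all regions (32.3 to 33.1%). The share was 60.4% among the 760 regions broad in 1 list and 77.4% (67.9 to 84.7%) among the 93 broad in all lists. Since a wider region covers more bases, the same was measured from the summit, which lay within 1 kb of a TSS for 57.3% of members, 47.2% of the narrower shared regions and 25.4% of all regions. TSS of genes on both strands lay inside 158 members (11.8%), against 7.66% of the narrower shared regions. Of the members at a TSS, 818 were nearest to a protein-coding gene, 31 to a lincRNA and 15 to a processed transcript. The summit of the members fell in intergenic sequence in 44.5%, in an intron in 30.8%, in a UTR exon in 18.1%, in a coding exon in 4.94% and in a non-coding exon in 1.65%. Over 100 kb from every TSS lay 61 members (4.57%), against 5.002% of the narrower shared regions and 9.25% of all regions.

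Where a region held the TSS of exactly 1 gene, broad DHS reached farther into the gene than out of it. Over 628 such single-copy members, the region joined over the lists extended a median of 705.5 bp upstream and 1051.5 bp downstream of the TSS nearest to the summit. The downstream side was the longer in 391 (62.3%). Regions that reach the start site of another gene are left out here, which can remove long upstream reaches, and the part of this was not tested. Over 6244 narrower shared regions the medians were 460 bp upstream and 475 bp downstream, and the downstream side was the longer in 52.0%. The summit lay within the 200 bp upstream of the TSS in 29.1% of the members and 40.4% of the narrower shared regions.

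**Figure D3:**
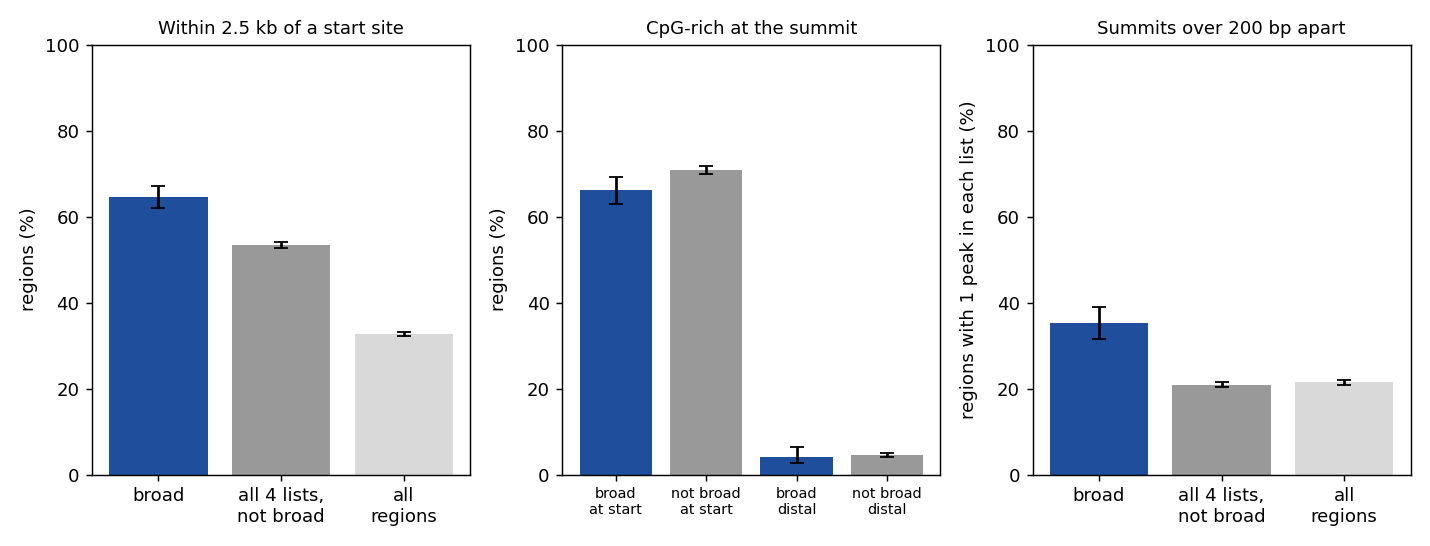
Percentages of regions with Wilson 95% intervals: within 2.5 kb of a TSS (left), CpG-rich at the summit (middle, by whether the region lies at a TSS) and with summits over 200 bp apart over the lists (right). Broad regions stand above the narrower shared regions on the left (64.7 against 53.4%) and the right (35.2 against 20.9%), but not in the middle (66.1 against 70.8% at a TSS).

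CpG-rich sequence was common at a TSS and rare elsewhere, in broad and narrower shared regions alike. A CpG-rich window was taken as 300 bp at the strongest summit with at least 50% G and C and an observed over expected CpG ratio of at least 0.6. At a TSS, 66.1% of the 855 single-copy members were CpG-rich (62.8 to 69.2%) and 70.8% of the 8957 narrower shared regions (69.9 to 71.8%). The share was 70.6% (58.9 to 80.1%) of the 68 single-copy members at a TSS that were broad in all 4 lists. Away from a TSS the shares were 4.13% (2.66 to 6.36%) of 460 members and 4.45% (4.02 to 4.93%) of 7815 narrower shared regions. Over all members the share was 43.9% and over all regions 18.97%, and over all regions at a TSS it was 53.1% (52.3 to 53.8%). The median G and C content at the summit was 63.3% for members at a TSS and 47.3% for distal members.

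Exact letters of 15 motifs were counted, on both strands, in the same 300 bp windows. At a TSS, GGGCGG (SP1) was present in 60.4% of members and 59.9% of the narrower shared regions, CCAAT (NFY) in 30.2 and 35.2%, CCGGAAG (ETS) in 11.6 and 17.01%, CACGTG (E-box) in 10.1 and 10.4%, GCGCATGCG (NRF1) in 1.75 and 3.52%, TGACGTCA (CRE) in 2.57 and 2.93%, the CRE part TGACG, which lies inside TGACGTCA, in 29.6 and 32.2%, and AGGGGGC (CTCF core) in 13.1 and 13.2%. In distal regions, TTGCNNAA (CEBP) was present in 21.5% of members and 23.9% of the narrower shared regions, TTCNNNGAA (STAT5) in 12.6 and 12.1%, TGANTCA (AP-1) in 9.57 and 11.2%, TGTTTAC (FOXA) in 8.04 and 9.14%, TTATGNAA (D-box) in 6.74 and 7.31%, TTAATNATT (HNF1) in 4.78 and 4.94%, CAAAGTCCA (HNF4) in 3.26 and 2.58%, and AGGGGGC in 5.22 and 3.61%. The ETS and CCAAT letters were the ones with the largest gaps at promoters, and both were less common in the broad ones. The other motifs lay within 3 percentage points of the narrower shared regions. Such matches are a description of the letters in these windows, and no match shows binding.

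The summit moved more between lists in broad DHS, though not in most of them. With 1 peak in each list, 657 members could be compared, and their 4 summits spanned a median of 97 bp against 89 bp in the narrower shared regions. Summits lay over 200 bp apart in 231 members (35.2%, 31.6 to 38.9%), where the background over all such regions was 21.5%, and over 500 bp apart in 104 (15.8%) against 1.96% of the narrower shared regions. At the other end, the share within 50 bp was alike, at 23.4% of members and 23.0% of the narrower shared regions. In Cpeb2, an RNA-binding translational regulator, Zc3h4 and BC024659 the 4 summits lay within 4 bp. A wide peak leaves more bases over which a summit can lie, and the part of width in these shares was not tested. Within a peak, the summit fell in the central range, from 33.3 to 66.7% of the width, in 30.6% of broad peaks of male B6, 33.4% of female B6, 30.2% of male CAST and 33.3% of female CAST, against 63.8, 59.6, 63.8 and 60.1% of the other peaks of each list.

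In some broad regions the summits divided by strain. The B6 summits lay within 200 bp of each other, the CAST summits likewise, and the strains over 200 bp apart, in 29 of the 657 members (4.41%, 3.09 to 6.27%), with a background of 1.52% over all regions and 1.41% in the narrower shared regions. A division by sex was seen in 12 members (1.83%, 1.05 to 3.17%), with a background of 0.653%. In 34 members the female B6 summit stood alone, in 30 the female CAST summit, in 23 the male B6 summit and in 19 the male CAST summit. These were 5.18, 4.57, 3.50 and 2.89% of the members, against 2.64, 2.62, 1.25 and 1.22% of all regions, so the female summits stood alone more often in both. Near Tat (chr8:112522562-112524882), in a region 8156 bp from the start of the tyrosine aminotransferase gene of gluconeogenic amino acid breakdown, the summits were at 112524086 and 112524080 in the B6 lists and at 112523332 and 112523418 in the CAST lists. Stat5a, a transducer of growth hormone signalling, also divided by strain, with summits at 100721642 and 100721660 in B6 and at 100720798 and 100720826 in CAST. The farthest summits among single-copy members belonged to a distal region nearest to Matn4 (chr2:164246931-164249487), at 164247133 in male B6 and between 164248875 and 164248958 in the other lists, a span of 1825 bp. At Foxa2, the female CAST summit lay 1200 bp from the farthest of the others.

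Male peaks were wider than female peaks over members and over all regions alike. The comparison used regions with exactly 1 peak in both lists, and a width ratio of 1.5 or more was called wider. In B6, 202 of 854 members were wider in the male list and 4 in the female list, where the backgrounds were 26.1 and 1.64% of all regions, and the median male over female ratio was 1.15 for members and 1.22 for all regions. In CAST, 321 of 872 members were wider in the male list and 0 in the female list, with backgrounds of 31.1 and 0.866%, and the median ratio was 1.28 for both. As the width itself chose the members, nothing is read from their counts against these backgrounds. Male over female, the summit reads of the members had a median ratio of 2.02 in B6 and 2.61 in CAST, while the ratio of the genome-wide backgrounds was 1.10 and 1.79.

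The extremes named here and for the strains are those of single-copy members with a peak in all 4 lists, and some regions absent from another list had larger ratios, such as Upp1 with 1664 bp in male B6 and 245 bp in female B6. Among members of all 4 lists, the largest male over female ratios in B6 were in an intron of Fnbp1l (1592 against 239 bp), which encodes a membrane-curving protein, at Amigo2 (1660 against 257 bp), a cell adhesion molecule, and 1187 bp from the start site of Adamtsl4 (1974 against 317 bp), a secreted matrix protein. Those in CAST were in an intron of Oxr1 (2394 against 293 bp), an oxidation resistance gene, at the start site of Sntb1 (2192 against 326 bp), a syntrophin of the dystrophin complex, and in an intron of Dip2b (1818 against 286 bp). In the Oxr1 region the B6 lists showed 1351 bp in males and 240 bp in females, so the male peak was the wider in both strains. In the other direction, female B6 exceeded male B6 in a distal region near Mettl21d (1568 against 876 bp) and at the promoters of Tbc1d9b (1759 against 1053 bp) and Dennd3 (1574 against 951 bp). The female CAST peak was the wider by the largest ratio near Tat (1033 against 722 bp), at 2210417A02Rik (1059 against 771 bp) and at Ell2, an elongation factor (1468 against 1124 bp), none of which reached 1.5. Ell2 was wider in females in both strains, with 1505 bp in female B6 and 1114 bp in male B6, although its summit reads were 380 and 397 in the male lists and 173 and 160 in the female lists.

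**Figure D4:**
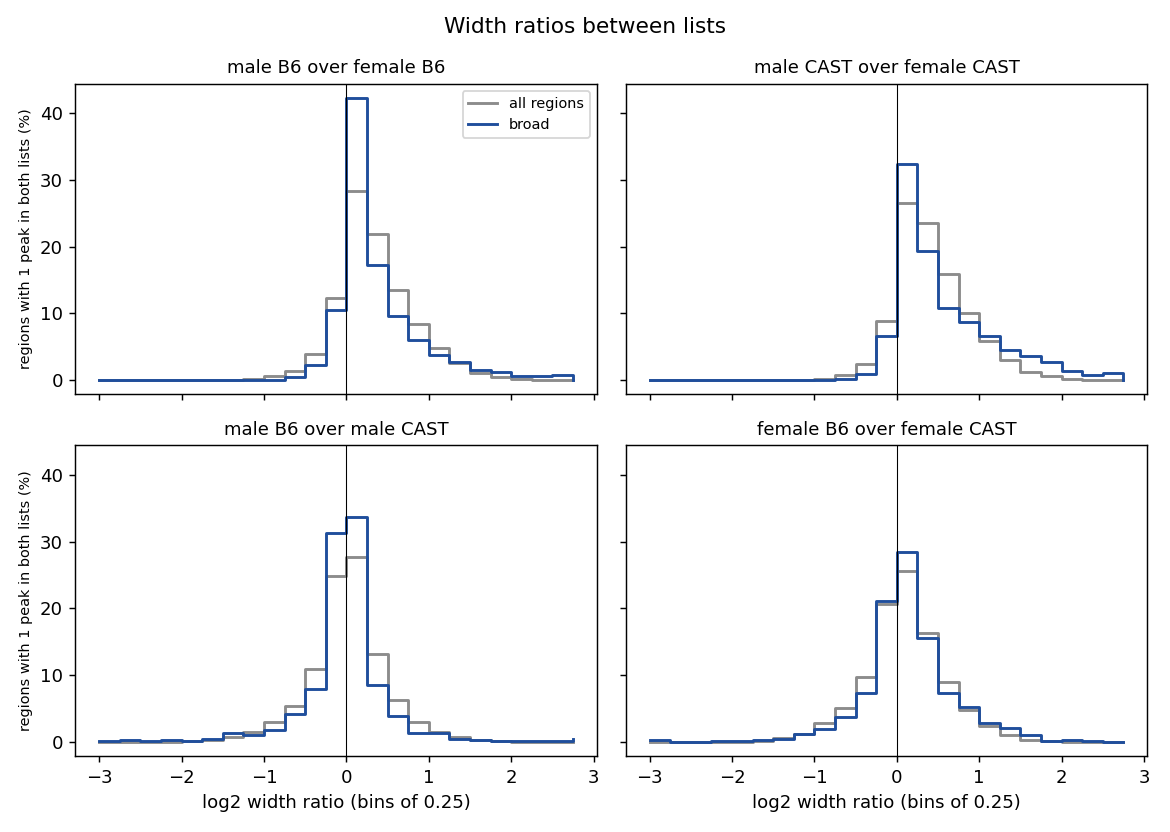
Distribution of the log2 width ratio (bins of 0.25, percentage of regions with 1 peak in both lists) for broad regions (blue) and all regions (grey), in both sex comparisons (top) and both strain comparisons (bottom). The distributions between the sexes lie mostly above 0, with medians of 1.15 (B6) and 1.28 (CAST) as ratios for the broad regions, and those between the strains centre near 0.

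Between the strains the widths were balanced in males. There, 69 of 999 members were wider in B6 and 82 in CAST, with backgrounds of 9.48 and 9.12%, and the medians were 1597 bp in B6 and 1581 bp in CAST. In females, 123 of 743 members were wider in B6 and 50 in CAST, with backgrounds of 14.2 and 7.94%, and the median B6 over CAST ratio was 1.07 for members and 1.06 for all regions. The genome-wide background was 1.08 times as high in B6 in males and 1.75 times in females. Esrp2, a splicing regulator of epithelial cells, had the largest CAST over B6 ratio in males among members of all 4 lists. Its region (chr8:108651939-108654823), 2152 bp from a start site, was 583 and 554 bp in the B6 lists and 2745 and 2317 bp in the CAST lists. The CAST list was thus the wider in both sexes, each group being 1 list. Rarres2, the gene of the hepatokine chemerin, measured 2103 bp in male CAST but 354 to 646 bp in the other lists. Near Osgin1, an oxidative stress response gene, the widths were 545 and 490 bp in B6 and 1558 and 999 bp in CAST. By the same rule, male B6 exceeded male CAST most in a distal region near Lrig1 (1615 against 371 bp) and at the promoters of Herc6 (1546 against 460 bp) and H2-Q10 (1741 against 591 bp), a liver-expressed MHC class Ib gene. In females, again over members of all 4 lists, B6 exceeded CAST most near Fgr, Barx2 and at A330040F15Rik, and CAST exceeded B6 most near 4930467K11Rik (2179 against 239 bp), Esrp2 and Gm7360.

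Broad regions missing from 1 sex or strain were few, and as above nothing is read from their shares against all regions. Found in both male lists and neither female list were 13 members (0.973%, against 9.37% of all regions), and no member was found in the female lists alone (0 of 1336, which allows a share of up to 0.225%, against 27 or 0.0533% of all regions), a background within what that 0 allows. The widest of the 13 lay nearest to 1700001O22Rik, AI427809 and at Mcc, and 4 of them lay at a TSS. Found in the B6 lists alone were 5 members (0.374%, against 3.30% of all regions), the widest nearest to Asb2 and R3hcc1 and at the promoter of Ank3, the cytoskeletal adaptor ankyrin-G, with 1601 bp in male B6 and 1305 bp in female B6. Found in the CAST lists alone were 27 members (2.02%, against 3.64% of all regions), and 0 of the 23 that were single-copy lay at a TSS, which allows a share of up to 13.04%. Their nearest genes included Cfhr2, Sirpb1b and Vmn1r174, of the complement factor H-related, signal-regulatory and vomeronasal receptor families, and the widths at these were 2571, 2486 and 2380 bp in male CAST and 1256, 481 and 994 bp in the widest piece of female CAST. Summit reads there were 53, 45 and 59 in male CAST, below the median of 76 for the narrower peaks of that list. Gene families with near-identical copies can be mapped differently in the genomes used for B6 and CAST, and this was not tested. Found in a single list were 4 members in male B6, 1 of them multi-copy (nearest to Nlgn1), and 5 in male CAST, together 0.674% of the members against 35.2% of all regions.

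Genes with a broad DHS within 2.5 kb of a TSS were counted in lists of genes by function. Over all protein-coding genes 971 of 22208 (4.37%) had one, or 7.83% of the 12402 with any region there. The lists were drawn up with earlier results of these data known, so the shares describe them and carry no test. Among hepatocyte transcription factors 8 of 18 had a broad region (44.4%), among core clock genes 5 of 16 (31.3%), among replication-dependent histone genes 5 of 18 (27.8%), among nuclear receptors of liver metabolism 4 of 18 (22.2%) and among immediate early and stress genes 7 of 32 (21.9%). The shares were 3 of 23 for lipid and cholesterol metabolism, 3 of 25 for secreted plasma proteins, 2 of 23 for insulin and growth hormone response, 1 of 30 for ribosomal proteins, 0 of 18 for cytochrome P450 genes and 0 of 20 for Hox genes. Any region at all was present at 18 of the hepatocyte factors, 30 of the ribosomal protein genes, 24 of the plasma protein genes, 15 of the P450 genes and 9 of the Hox genes. Of the genes with any region, a broad one was present at 12.5% of the plasma protein genes and 0 of the 15 P450 genes, beside 7.83% of all protein-coding genes. The counts of 0 at these 15 P450 genes and at the 9 Hox genes rest on too few genes to be told apart from that share.

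**Figure D5:**
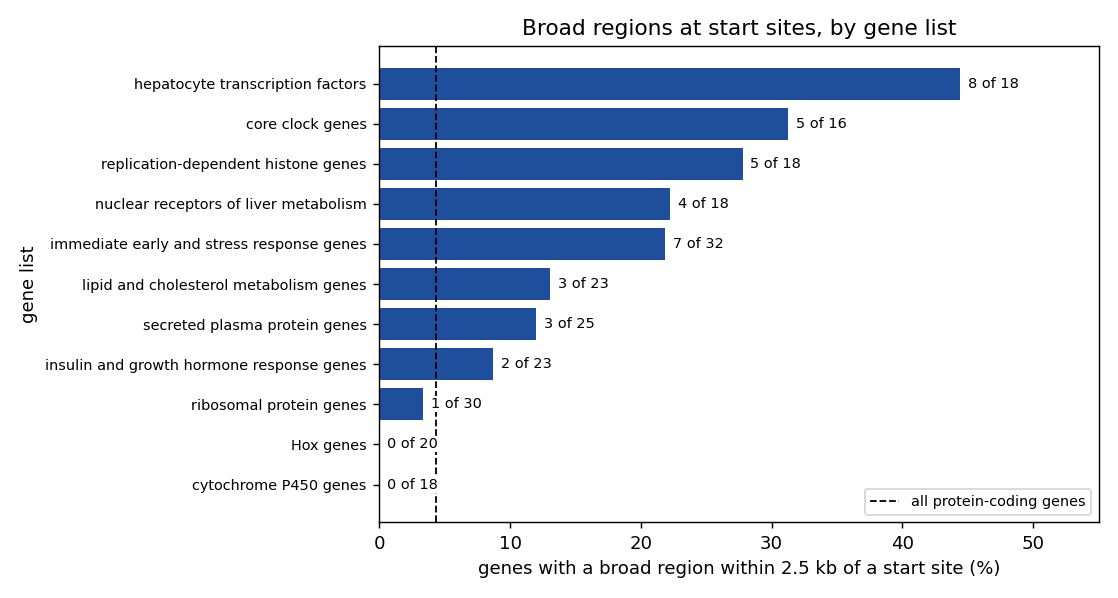
Percentage of the genes of each list with a broad region within 2.5 kb of a TSS, with the counts beside the bars and the share of all protein-coding genes (4.37%) dashed. Hepatocyte transcription factors reach 44.4%, and the bars of P450 and Hox genes are at 0.

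Of the hepatocyte transcription factors, Foxa2, a pioneer factor of the liver, was broad in every list with 1967 and 1690 bp for B6 males and females and 2045 and 1650 bp for CAST males and females (chr2:147871059-147873103). Its summit reads were 403, 169, 349 and 126 in that order. Cebpb, an acute-phase and metabolic regulator, reached the limit in 3 lists with 1650, 1613 and 1757 bp and had 1458 bp in female CAST. Foxa3, which shares its region with Sympk, had 1528 and 1557 bp in the male lists and 1396 and 1216 bp in the female lists. Others were broad in 1 list each. Nr5a2 was broad in female B6, as described above, and Xbp1, of the secretory stress response, in male B6 (1651 bp, with 709 to 890 bp elsewhere). Tcf7l2, the effector of Wnt signalling, was broad in male B6 (1636 bp) and had 288 bp in B6 females and 745 and 471 bp in CAST males and females. Gata6 was broad in male B6 (1610 bp), through a region that also holds the start site of 1010001N08Rik.

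Among nuclear receptors, Nr1h4, the bile acid receptor FXR, measured 1937 and 1921 bp in the B6 lists and 1931 bp in male CAST but was divided in female CAST, the wider piece being 867 bp. Thrb, the thyroid hormone receptor beta, was broad in the males of both strains (2154 and 2180 bp) and divided in the females (807 and 894 bp), where the pieces added up to 1581 and 1677 bp. Rara, a retinoic acid receptor, was broad in male CAST (1671 bp). With Nr3c1 these are the 4 members of the list.

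The clock genes held the widest promoter of the lists after Nr3c1. Bhlhe40, a repressor of the clock feedback loop, measured 2476 and 2113 bp for B6 males and females and 2183 and 1713 bp for CAST males and females (chr6:108608371-108610887), with 612, 283, 553 and 226 reads over the summit. Its paralogue Bhlhe41 was broad in the males (1559 and 1580 bp) and reached 670 and 451 bp in the females. Nfil3, a repressor acting at D-box sites, had 2005 and 2058 bp in the male lists and 1758 bp in female CAST and was divided in female B6 (1077 bp). Clock was broad in the males (1620 and 1618 bp against 722 and 618 bp). Tef, a D-box activator, passed in male B6 alone (1513 bp), but its other widths of 1382, 1490 and 1438 bp lay just under the limit. Its summit reads of 880, 365, 849 and 382 were the highest of the clock genes with a broad region.

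Immediate early and stress genes were mixed. Jun, a subunit of the AP-1 factor, had 1799, 1826 and 1991 bp in male B6, female B6 and male CAST and was divided in female CAST, where the wider piece was 1117 bp. Fosl2, another AP-1 subunit, had 1598, 1566 and 1529 bp in male B6, female B6 and female CAST and was divided in male CAST (1005 bp). Sgk1, a kinase induced by glucocorticoids and insulin, was broad in the males (1912 and 2054 bp) and divided in the females (716 and 676 bp). Ddit4, an inhibitor of mTOR, was broad in the males (1649 and 1567 bp) with 927 and 848 bp in the females. Gadd45b had 1649 and 1607 bp in the males and 1473 and 1354 bp in the females. Gadd45g was broad in male CAST alone (1747 bp), was 327 bp in male B6 and had no peak in female B6. Ier5 was broad in male B6 (1589 bp) and 527 to 723 bp elsewhere.

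Metabolic and secretory genes gave 8 members. Insig1, the sterol-sensing retention protein, was broad in 3 lists (1702, 1656 and 1627 bp) and had 1073 bp in female B6. Fads2, a fatty acid desaturase, was broad in 3 lists (1554, 1620 and 1879 bp) with 1124 bp in female CAST. Cpt1a, the entry enzyme of mitochondrial fatty acid oxidation, passed in male B6 alone (1718 bp) and was divided in each other list. Apob, the structural protein of very low density lipoprotein, likewise passed in male B6 (1655 bp) and was divided in the others, with pieces adding up to 1121 to 1305 bp. Apoa1 passed through male CAST with 1502 bp, the other widths being 1366 to 1481 bp, and F2, prothrombin, through male CAST with 1500 bp. Socs2, a feedback inhibitor of growth hormone signalling, had 1602 and 1637 bp in the males, 1343 bp in female B6 and 794 bp in female CAST. Stat5a had 1503 bp in male B6, 1421 and 1458 bp in female B6 and male CAST, and 432 bp in female CAST.

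The 5 histone genes shared 3 regions, since these genes lie close together. The region of Hist1h1e and Hist1h2be was 2179 bp in male B6 and 759, 1183 and 774 bp in the widest pieces of the other lists. That of Hist2h2aa1 and Hist2h3c1 was broad in the males (1692 and 1658 bp), and that of Hist1h4h in male B6 (1637 bp), with 825, 1466 and 1362 bp elsewhere. Histone genes are near-identical copies, so unique mapping can leave parts of such a region without reads, and this was not tested. The ribosomal protein gene Rpl7, whose region also holds the start site of Rdh10, had 1838, 1564 and 1686 bp in 3 lists and 1324 bp in female CAST.

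The tissue label was checked against marker genes of liver cell types, by whether any region lay within 2.5 kb of a TSS. Any region was present at 9 of 10 hepatocyte markers, 6 of 6 sinusoidal endothelial markers, 2 of 6 stellate cell markers, 2 of 5 bile duct markers, 0 of 5 Kupffer cell markers and 0 of 5 lymphocyte and blood markers. Broad regions lay at Apoa1 (hepatocyte), Stab2 (endothelial) and Sox9 (bile duct). At Stab2, a scavenger receptor of liver sinusoids, widths differed between the strains, as its region (chr10:86341356-86343662) was divided into 3 peaks in both B6 lists, the widest being 534 and 498 bp, and was 1 peak of 2253 and 1445 bp in the CAST males and females. Its summit reads were 86 and 87 in the B6 lists, 349 in male CAST and 87 in female CAST. Sox9 measured 1620, 1541 and 1720 bp in 3 lists and was divided in female CAST (504 bp). In bulk liver, a wider or higher signal from more cells of a type and from more open chromatin per cell cannot be told apart.

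The members were spread over all 19 autosomes, at 2.02% of the regions of chromosome 18 to 3.15% of those of chromosome 3. Of the 1336, 57 had another member within 10 kb and 229 within 50 kb. Among the 93 that were broad in every list were the promoters of Idh1 (2130, 1815, 2186 and 1792 bp), the cytosolic isocitrate dehydrogenase, Ndrg2 (2115, 2018, 2157 and 2015 bp), Hsp90ab1 (2147, 1963, 1964 and 1572 bp) and Nfe2l2 (1970, 1860, 1940 and 1916 bp). Hfe2, whose distal region was printed above, had 2227, 1854, 1662 and 1587 bp. The widths of Ndrg2 and Nfe2l2 lay close together in the 4 lists, whereas at Hsp90ab1 female CAST was the narrowest. These values are given in the order male B6, female B6, male CAST and female CAST.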

How the data were processed

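DNase-seq libraries of liver from 4 groups (male and female, B6 and CAST, 4 libraries each) were mapped by the authors with Bowtie2, B6 reads to mm9 and CAST reads to mm9 carrying CAST variants, and only uniquely mapped reads were kept. Libraries were merged by group, peaks were called with MACS2, and CAST coordinates were converted to mm9. The paper states that peaks in blacklisted regions were removed, and whether the deposited lists carry that filter was not checked. The deposited lists hold peak bounds, a score, the fold enrichment (a ratio of summit reads to local background, each plus 1), the −log10 p, the −log10 q and the summit offset of each peak, all set by the authors' peak caller, and depth of single libraries was not used here. In the CAST lists 4 (male) and 2 (female) summits lie outside their converted peak.

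Width was taken as end minus start. Summit reads and the local background were solved from the fold enrichment and the −log10 p, and the most frequent background of a list was taken as genome-wide. Peaks on chromosomes 1 to 19 were joined at 1 bp overlap. A member was set aside as multi-copy where BLAST+ 2.17.0 found the 300 bp at its strongest summit again in mm9 (at least 90% identity over 80% of those bases). So was a member whose whole region matched the mitochondrial chromosome over at least 300 bp. High-background members, a criterion added after seeing the data, had a local background of at least 20 times the genome-wide one. The other members are called single-copy, which for mm9 rests on the summit window alone. Regions that are not members were not searched, so single-copy members stand beside unfiltered narrower shared regions. TSS came from GENCODE vM1 (mm9). Counts, medians and Wilson 95% intervals were computed with Python 3.11.15, pandas 2.3.3 and SciPy 1.17.1, and the code was tested on simulated lists. With 1 list per group there is no test. The members, the gene lists and the motifs were chosen with earlier results of these data known. Named regions follow fixed ranks: the 20 widest, the 5 widest distal, the 3 widest found in 1 sex or strain, the 3 largest width ratios each way among regions of all 4 lists, the 3 farthest and 3 closest summit sets, 3 on each side of the limit, and genes of the lists. Regions named in addition (Idh1, Ndrg2, Hsp90ab1, Nfe2l2 and Hfe2, all broad in every list, and Aig1 and Upp1) were chosen after their values were seen. Alternatives were other width limits, summed widths, joining within 500 bp, the widest 1.5% of each list, a stricter −log10 q, other TSS limits, whole-region composition and the X chromosome added. Some regions that follow these ranks are not reported here.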

Additional observations from a re-analysis of the deposited data

Results flagged for a closer look

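Outside the autosomes, broad peaks were also listed on the X chromosome, 14 of 586 and 4 of 469 peaks for B6 males and females and 13 of 591 and 4 of 421 for CAST males and females. These were 2.39 and 0.853% of the X peaks in B6 and 2.2 and 0.95% in CAST, beside 2.31, 1.14, 2.30 and 0.809% on the autosomes (male B6, female B6, male CAST, female CAST). On the Y chromosome the male B6 list had 10 broad peaks of 53 (18.9%, Wilson 95% interval 10.6 to 31.4%), the female B6 list 1 of 15, and the CAST lists held no peak there. Y peaks in a female list are given as listed, and their source was not tested.

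At 2 members with 1 peak in each list the sexes differed by 1.5 times or more in opposite directions in the strains, a difference that was not tested. At Dennd3, a guanine nucleotide exchange factor, the female B6 peak was 1.66 times as wide as the male one (1574 against 951 bp), and the male CAST peak was 2.70 times as wide as the female one (2056 against 761 bp). At Aig1, a hydrolase of fatty acid esters, the female B6 peak was 1.53 times as wide (1102 against 720 bp) and the male CAST peak 3.03 times (1514 against 499 bp). Summit reads at Dennd3 were 146 and 76 for B6 males and females and 148 and 53 for CAST males and females, so in both strains the male list had more reads there.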

How the results depend on the processing

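No paired analysis was possible because the libraries of a group were merged before peaks were called, which also means that no library could be dropped in turn. With the width limit lowered by 250 bp there were 3165 broad regions, of which 10.5% were broad in all lists, and 2157, 886, 2200 and 604 broad peaks in male B6, female B6, male CAST and female CAST. With 2000 bp there were 203 regions, 134, 31, 129 and 29 broad peaks, and 154 protein-coding genes at a broad region in place of 971. The share broad in all lists, 6.96%, was 9.81% with summed widths and 9.70% with the widest 1.5% of each list, where the limits were 1622, 1443, 1609 and 1358 bp. The share at a TSS, 64.7%, was 59.5% where the TSS had to lie inside the region. Summits over 200 bp apart, 35.2% of members, made up 45.1% when regions with several peaks in a list were included, and 40.0% with the highest-scoring peak of each list. Median male over female ratios were 1.24 in B6 and 1.38 in CAST with summed widths. That setting also took in members with several peaks in a list (1254 in B6 and 1287 in CAST). The other 43 settings of these results stayed within their interval or within 1.5 times, and no direction reversed. Lists of genes were recounted with a TSS limit of 1 kb, the 2000 bp limit and the widest 1.5% of each list, but not with the lowered width limit. Among these settings they changed most with 2000 bp, where 1 of the 8 hepatocyte factors and 2 of the 5 clock genes remained counted. The alternatives added after seeing the data were the background limit, the TSS distance measured from the summit, and summits of the widest peak of each list in regions with several peaks. Depth was lowest in the female CAST list, with a genome-wide background of 7.94 reads, and its effect on widths was not tested.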
